A study of Mus musculus with 15 samples.

Results

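Grb10 encodes growth factor receptor-bound protein 10, an adaptor that binds the activated insulin and IGF1 receptors and restrains growth. It is 1 gene of 38355 in the authors' deposited table of RNA-seq results from mouse embryonic stem cells, and 1 of 16005 with a value in all 4 comparisons. It was selected on its own values there, the log2 fold changes of all 4 comparisons, being lower in both PRC2 knockouts and higher in the PRC1 knockout. Those values are therefore given as a description without a test. A total of 5 lines were grown in 2i medium, which holds stem cells in the naive state with LIF and inhibitors of MEK and GSK3, and each line has 3 replicates. Ezh2-KO cells (Ezh2 -/-) and Suz12-KO cells (Suz12 -/-) each lack a core subunit of PRC2. Ring1A+B-DKO cells (Ring1a -/-; Ring1b -/-) lack both ubiquitin ligases of PRC1. The wild types are Ezh2-WT, a line with both Ezh2 alleles floxed, and E14-WT, the line E14TG2a. The authors set Ezh2-KO against Ezh2-WT, and set Suz12-KO, Ring1A+B-DKO and Ezh2-WT against E14-WT. None of the 5 groups is a parental wild type stated for Suz12-KO or Ring1A+B-DKO, so the difference between lines and the deletion cannot be told apart in those comparisons, and how the lines were made is not described in the labels.

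Polycomb repressive complex 2 methylates a lysine of histone H3, and Polycomb repressive complex 1 ubiquitinates histone H2A. Both are known for keeping developmental genes silent in embryonic stem cells, often at CpG islands, which are stretches rich in the dinucleotide CG. Grb10 is an imprinted gene, one whose parental copies are used unequally. In mouse tissues it is known to be transcribed mainly from the maternal copy, while neurons use the paternal copy from other start sites, and mice without the maternal copy are known to overgrow. The series' title concerns the recruitment of PRC2 to CpG islands, and the comparisons ask which transcripts depend on each complex.

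Grb10 (ENSMUSG00000020176) lies on the minus strand of chromosome 11, from 11930508 to 12038683 in GRCm38, a span of 108.176 kb. GENCODE release 21 lists 9 transcripts of it, 6 of them protein-coding, with 9 different start sites. No other annotated gene overlaps it on either strand (0 genes), and 0 other genes have a near-identical transcript. The table gives 1 value for all 9 transcripts, so a change in the use of start sites cannot be seen in it. RefSeq (GRCm38.p6) gives promoter windows for 2 starts of its own, 9.449 kb apart, each from 250 bases before the start to 50 after it. The second, at 12027971, is also a GENCODE start, while the first, at 12037420, is none of the GENCODE starts, the nearest being at 12037401. They are printed because they show how different in CpG content the annotated starts of Grb10 are. The capitals mark each CG.
Grb10, first start, chr11:12037371-12037670, minus strand: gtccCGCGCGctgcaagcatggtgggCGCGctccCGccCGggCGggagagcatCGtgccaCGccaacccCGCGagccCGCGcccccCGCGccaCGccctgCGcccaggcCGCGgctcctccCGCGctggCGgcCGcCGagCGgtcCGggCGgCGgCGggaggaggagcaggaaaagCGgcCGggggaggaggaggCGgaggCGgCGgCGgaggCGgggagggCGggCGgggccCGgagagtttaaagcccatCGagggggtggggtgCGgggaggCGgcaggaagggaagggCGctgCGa
Grb10, second start, chr11:12027922-12028221, minus strand: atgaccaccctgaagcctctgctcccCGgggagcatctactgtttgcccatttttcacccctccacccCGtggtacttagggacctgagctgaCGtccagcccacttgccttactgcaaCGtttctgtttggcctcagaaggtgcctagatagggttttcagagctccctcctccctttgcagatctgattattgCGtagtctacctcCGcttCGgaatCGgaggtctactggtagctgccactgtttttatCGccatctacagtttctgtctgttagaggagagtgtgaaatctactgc

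The first window holds 45 CG dinucleotides and is 80.0% G or C. Of 32851 RefSeq promoter windows of the same length, whose median is 7, only 1.93% hold as many. CG reads the same on both strands, so each was counted once. The second window holds 9, which 45.8% of all windows reach, and is 52.3% G or C. The first start thus lies in a CpG-dense stretch and the second does not, which describes the letters only and says nothing of the state of the chromatin there.

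Grb10 was lower in both PRC2 knockouts and higher in Ring1A+B-DKO by the authors' deposited table, and was called as changed in each. Its log2 fold change was -1.22 in Ezh2-KO over Ezh2-WT, a ratio of 0.429. It was -1.48 in Suz12-KO over E14-WT, a ratio of 0.358. It was 1.52 in Ring1A+B-DKO over E14-WT, a ratio of 2.86. Between the wild types, Ezh2-WT over E14-WT, it was -0.10, a ratio of 0.934, and was not called. All fold changes here are those of that table. It holds no values per sample, standard errors or p-values, so the spread between replicates and the depth behind these numbers are unknown and no interval can be given. In bulk RNA, fewer cells of a type and less RNA per cell cannot be told apart. Some markers of primitive endoderm, trophoblast and fibroblasts (4 of 9, 3 of 9 and 2 of 6) were called higher in Ring1A+B-DKO, as were 2.38% of all genes. Of 8 neural markers 0 were called higher and 2 lower, beside 0.620% of all genes called lower. Values of the markers are given at the end, and the part of such cells in the value of Grb10 was not tested. The columns against E14-WT hold E14-WT over the named group and were turned, as described with the processing. Deposited, Grb10 reads 1.48 for Suz12-KO and -1.52 for Ring1A+B-DKO, so the opposite directions of those 2 lines do not rest on the turning. The shared direction of Suz12-KO and Ezh2-KO does rest on it.

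Against all genes with a value, Grb10 lay far out in the PRC2 knockouts. In Ezh2-KO only 0.204% of 18097 genes were lower, and the value was -4.24 times the standard deviation over genes (0.288). In Suz12-KO 0.0703% of 18498 genes were lower, at -4.94 standard deviations of 0.299. The lowest 1% of genes ended at -0.81 in Ezh2-KO and at -0.87 in Suz12-KO, so Grb10 was well beyond that bound in both. In Ring1A+B-DKO 97.7% of 19693 genes were lower than Grb10, at 2.67 standard deviations of 0.569. That value was inside the highest bound, since the top 1% of genes began at 1.86. Among the 3 knockout comparisons Grb10 was thus nearest to the edge of its column in Suz12-KO and least so in Ring1A+B-DKO, although the log2 fold change itself was greatest in size there. Between the wild types Grb10 was at the 38.5th percentile, at -0.25 standard deviations, in the middle of the column.

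**Figure D1:**
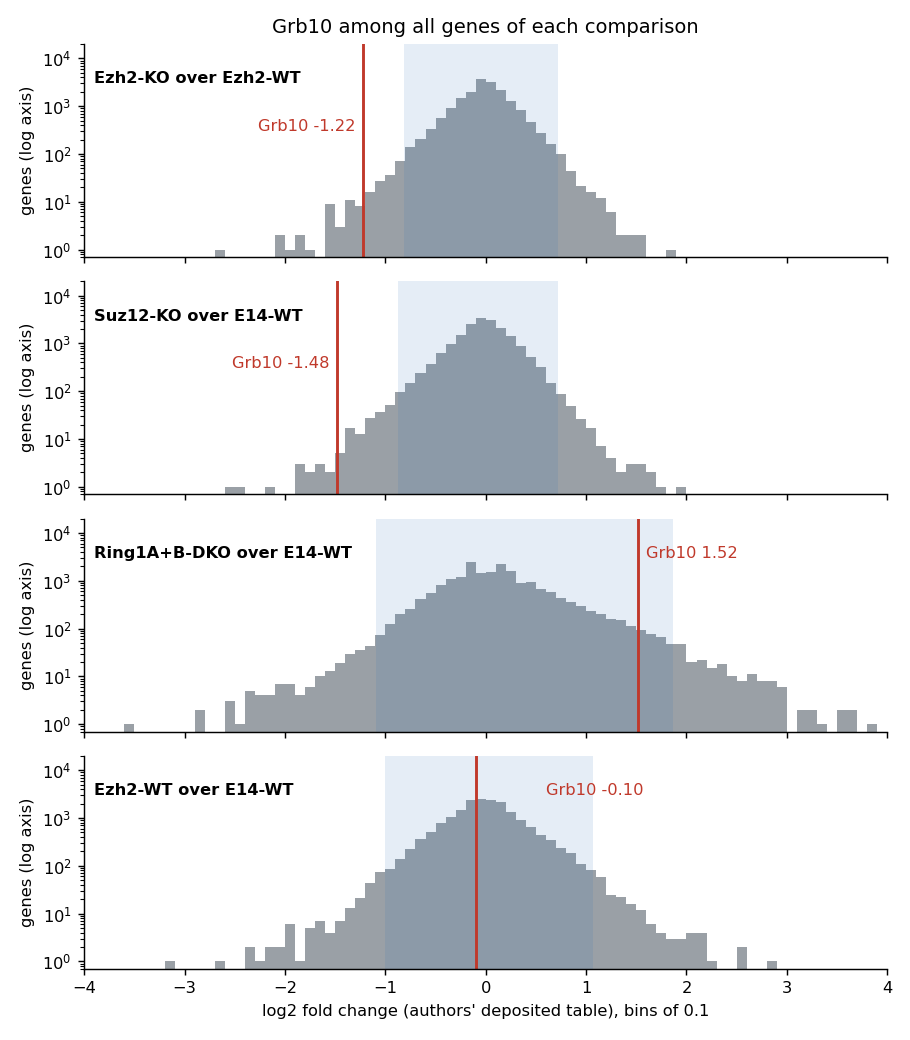
Number of genes (log axis) by log2 fold change in bins of 0.1, for each of the 4 comparisons in the authors' deposited table. The red line is Grb10 and the shaded band holds the central 98% of genes. Grb10 is outside the band in Ezh2-KO (-1.22) and Suz12-KO (-1.48), inside it in Ring1A+B-DKO (1.52) and near the centre between the wild types (-0.10), and 4 genes of Ring1A+B-DKO lie beyond the plotted range.

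The authors' calls place Grb10 in short lists in the PRC2 knockouts and in a long one in the PRC1 knockout. In Ezh2-KO 24 genes were called lower, 0.133% of those with a value, and 8 higher, 0.0442%. In Suz12-KO 21 genes were called lower, 0.114%, and 16 higher, 0.0865%. In Ring1A+B-DKO the calls were 469 higher, 2.38%, and 122 lower, 0.620%. Between the wild types 67 genes were called higher in Ezh2-WT, 0.360%, and 46 lower, 0.247%. By size Grb10 was 22nd of the 24 in Ezh2-KO, between Ptprs, a receptor tyrosine phosphatase, at -1.28 and Klhl42 at -1.16. In Suz12-KO it was 14th of 21, between Klhdc7a at -1.54 and the phospholipase gene Plce1 at -1.36. In Ring1A+B-DKO it was 386th of 469, between Gm7102 at 1.53 and the p53 target Perp at 1.51. In each comparison its size was below the median of the calls in its direction, which was -1.51 in Ezh2-KO, -1.66 in Suz12-KO and 1.80 in Ring1A+B-DKO. All 14 genes at or below Grb10 in Suz12-KO, itself included, were called. In Ezh2-KO 16 of the 38 genes at or below it were not called, and in Ring1A+B-DKO 62 of the 448 at or above it were not, so size alone did not decide a call.

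Placed on one scale, the lines ran from Suz12-KO at the low end to Ring1A+B-DKO at the high end. Relative to E14-WT, Grb10 stood at -1.48 on the log2 scale in Suz12-KO and at 1.52 in Ring1A+B-DKO. Ezh2-KO was not set against E14-WT by the authors, and the sum of its change over Ezh2-WT and that of Ezh2-WT over E14-WT is -1.32. Ezh2-WT stood at -0.10. The gap between Ring1A+B-DKO and Suz12-KO was 3.00 on the log2 scale, a ratio of 7.99. The neighbours in this order, Suz12-KO and Ezh2-KO, differed by -0.16, and Ezh2-WT and E14-WT by -0.10. Without errors it cannot be said whether either small gap exceeds the spread between replicates. Genes with reads in the named group and none in its control had median log2 fold changes of only 0.20 in Ring1A+B-DKO, 0.08 in Ezh2-KO, 0.10 in Suz12-KO and 0.12 in Ezh2-WT, so the authors' values are moderated, and pulled close to 0 where reads are few. The sum is therefore approximate and the sizes are not strictly on one scale.

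**Figure D2:**
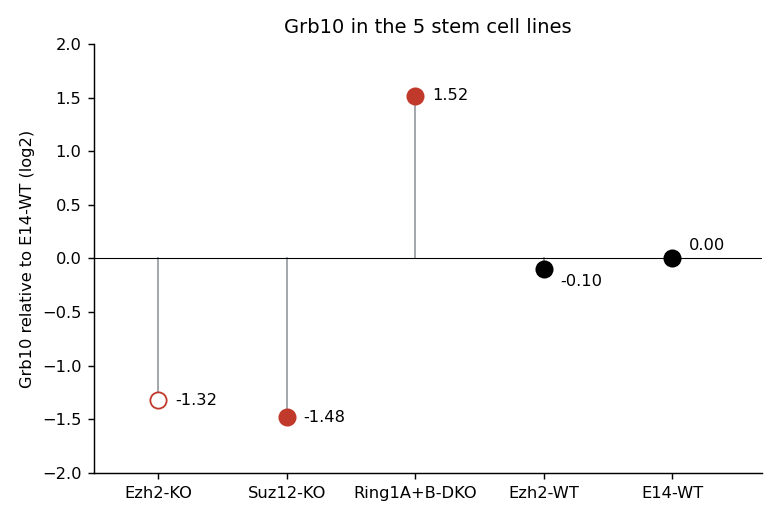
Grb10 in each line relative to E14-WT (log2, authors' deposited table), with knockout lines in red and wild types in black. The open circle of Ezh2-KO is a sum of 2 deposited values. Suz12-KO (-1.48) and Ezh2-KO (-1.32) are low, Ezh2-WT (-0.10) is close to E14-WT and Ring1A+B-DKO (1.52) is high, and no error bars can be drawn.

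For the deleted genes the authors' deposited table gives a called decrease of Ring1, at -2.03 in Ring1A+B-DKO, while Rnf2, the gene of Ring1b, was at 0.17. Suz12 was at -1.04 in Suz12-KO and Ezh2 at -0.14 in Ezh2-KO, neither called. One value per gene also covers exons that a deletion leaves in place, so these values check the labels only in part.

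Grb10 was the single gene of the table called lower in both PRC2 knockouts and higher in Ring1A+B-DKO. That count is what the choice of Grb10 rests on and carries no test. A further 6 genes were called as Grb10 was in exactly 2 of the 3 knockout comparisons. App, the amyloid precursor gene, and Adcy1, an adenylyl cyclase gene, were called lower in Ezh2-KO at -1.90 and -1.57 and higher in Ring1A+B-DKO at 1.78 and 1.38. In Suz12-KO they stood at -0.91 and -0.71 without a call. The transcription factor genes Gata2 and Bhlhe41 and the neuronal enolase gene Eno2 were also called in those comparisons, at -2.68, -1.58 and -1.51 in Ezh2-KO and at 1.67, 2.12 and 1.96 in Ring1A+B-DKO. These 3 differed between the wild types as well, being called higher in Ezh2-WT than in E14-WT at 2.58, 2.08 and 2.23, where Grb10 stood at -0.10. Lrp2, which encodes the endocytic receptor megalin, was called lower in Suz12-KO at -1.66 and higher in Ring1A+B-DKO at 1.45, and stood at -0.50 in Ezh2-KO. Suz12-KO and Ring1A+B-DKO share the E14-WT libraries, so their values are not independent of each other. Ezh2-KO over Ezh2-WT and Ezh2-WT over E14-WT share the Ezh2-WT libraries, on opposite sides of the ratio. A high level in Ezh2-WT alone would thus lower the former value and raise the latter.

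With no call required, 16 genes stood at -1 or lower in both PRC2 knockouts. A size of 1 or more in either direction was reached by 8.10% of genes in Ring1A+B-DKO, against 0.674% in Ezh2-KO, 0.822% in Suz12-KO and 2.32% in Ezh2-WT. Beside Grb10 there were 15, and their values in Ring1A+B-DKO ran from -1.24 for Prmt8 to 1.12 for Mn1, with a median of 0.40. Of the 15, 9 stood above 0 and 6 below it in Ring1A+B-DKO, and 0 were called there, beside 55.4% of all genes above 0 and 3.00% called, so neither count stands out. Mn1, a transcriptional co-regulator gene, was the only other gene past 1 in size in all 3 with the signs of Grb10, at 1.12 in Ring1A+B-DKO, -1.51 in Ezh2-KO and -1.08 in Suz12-KO. It was called in Ezh2-KO alone.

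The genes whose values lay closest to those of Grb10 were sought over the 4 comparisons, by Euclidean distance among 13453 other genes with all 4 values, leaving out models named Gm or Rik. The 8 nearest were at distances of 0.57 to 0.85, against a median of 2.48 over all of them. First came Slc1a1 (chromosome 19, 28835049 to 28913960), a glutamate transporter gene, which stood at 1.34 in Ring1A+B-DKO, -0.78 in Ezh2-KO and -1.19 in Suz12-KO, and at -0.23 in Ezh2-WT over E14-WT. Parp12 (chromosome 6, 39086410 to 39118349), an ADP-ribosyltransferase gene, had 1.29, -0.90, -1.05 and -0.12 in the same order. Pxdn (chromosome 12, 29937608 to 30017658), which encodes a peroxidase of the extracellular matrix, had 1.37, -0.71, -1.28 and -0.55. These 3 were called higher in Ring1A+B-DKO and were not called in either PRC2 knockout. The others were H2-K1, an MHC class I gene whose relatives are alike in sequence so that its reads may be divided, the chemokine gene Cxcl14, Crim1, the chondroitin sulfotransferase gene Chst11 and Frem2, a matrix protein gene. Crim1 was called higher in Ring1A+B-DKO at 1.38. Of the 8, none was called in Ezh2-KO or Suz12-KO (0 genes), beside 0.177% and 0.200% of all genes, at which 0 calls says little. In Ring1A+B-DKO 2.38% of all genes were called higher, and the choice by nearness favours high values there. Grb10 had the lowest value in Suz12-KO and the highest in Ring1A+B-DKO, while Frem2, at -1.39, was lower than Grb10 in Ezh2-KO. Few genes lie beyond Grb10 in these columns, so genes chosen for nearness mostly stand closer to 0, and this order is no result. None of the 8 is on chromosome 11. Their RefSeq promoter windows held 13 to 46 CG dinucleotides, taking the richest window of each gene, with a median of 26.5, against 45 for Grb10. Of the 13453 genes searched 10257 had such a window, with a median of 22, and since that is only 76.2% of them no comparison is made.

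**Figure D3:**
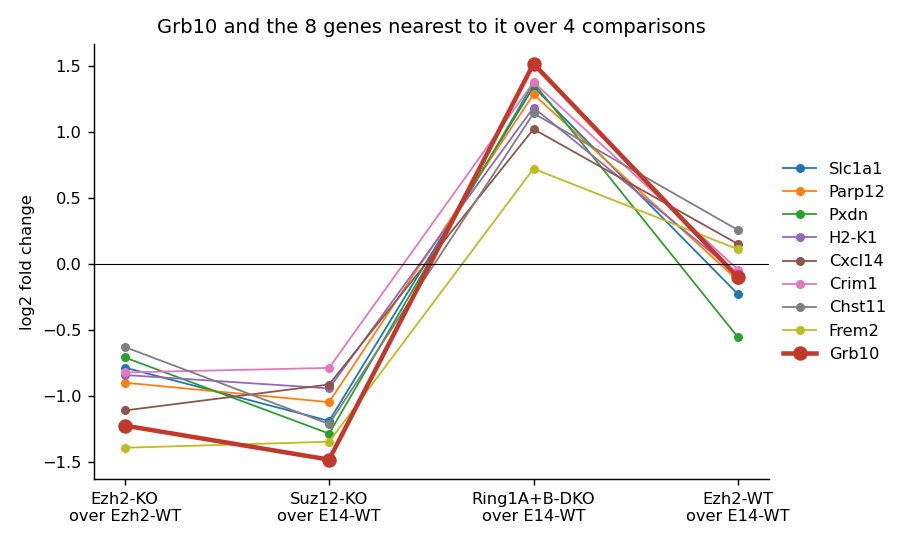
Log2 fold change (authors' deposited table) of Grb10 (thick red line) and of the 8 genes nearest to it by Euclidean distance, over the 4 comparisons. All 9 lines are below 0 in both PRC2 knockouts and above 0 in Ring1A+B-DKO, which the choice by nearness favours, and Grb10 reaches -1.48 in Suz12-KO and 1.52 in Ring1A+B-DKO.

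The genes around Grb10 did not share its calls. Within 1 Mb on each side the table holds 24 other genes, 8 of them protein-coding, and 13 have a value in some comparison. Of those 13, 0 were called in any comparison, beside 0.177% of all genes called in either direction in Ezh2-KO and 0.200% in Suz12-KO. The same share was 3.00% in Ring1A+B-DKO and 0.607% in Ezh2-WT. With so few genes and such low shares, 0 calls says little. Their log2 fold changes ran from -0.24 to 0.06 over 8 genes in Ezh2-KO and from -0.15 to 0.12 over 10 genes in Suz12-KO, where Grb10 stood at -1.22 and -1.48. Of these values, 5 in Ezh2-KO and 6 in Suz12-KO are shared exactly with other genes of the column. Shared values made up 31.4% and 31.3% of those columns and had median sizes of 0.09 and 0.10, so they lie near 0. The neighbours with a value of their own ran from -0.24 to 0.02 over 3 genes in Ezh2-KO and from -0.15 to 0.07 over 4 genes in Suz12-KO. In Ring1A+B-DKO all neighbours ran from -0.98 to 0.39 over 9 genes, with a median of -0.37, where Grb10 stood at 1.52, and the 4 with a value of their own from -0.98 to 0.08.

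The nearest protein-coding neighbour is Ddc (chromosome 11, 11814101 to 11898144), which encodes the decarboxylase that makes dopamine and serotonin and is itself known to be imprinted in the embryonic mouse heart. It lies 32.364 kb beyond the 3′ end of Grb10 on the same strand. Ddc stood at -0.98 in Ring1A+B-DKO, 0.02 in Ezh2-KO and -0.15 in Suz12-KO, and at -0.45 in Ezh2-WT over E14-WT, called in none. On the other side the first is Cobl (chromosome 11, 12236608 to 12464960), an actin nucleator gene, which stood at -0.94, -0.24, -0.13 and 0.09 in the same order. Ddc and Cobl were thus near 0 in the PRC2 knockouts and below 0 in Ring1A+B-DKO, on the other side of 0 from Grb10, and neither difference from Grb10 could be tested. Fignl1, a DNA repair gene, and Ikzf1, a lymphoid transcription factor gene, stood at -0.62 and -0.55 in Ring1A+B-DKO and between -0.18 and 0.07 in the PRC2 knockouts. The CG content of the starts varied among these neighbours, with 52 in the richest window of Ikzf1, 42 in that of Cobl, 34 in that of Fignl1 and 5 in that of Ddc.

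**Figure D4:**
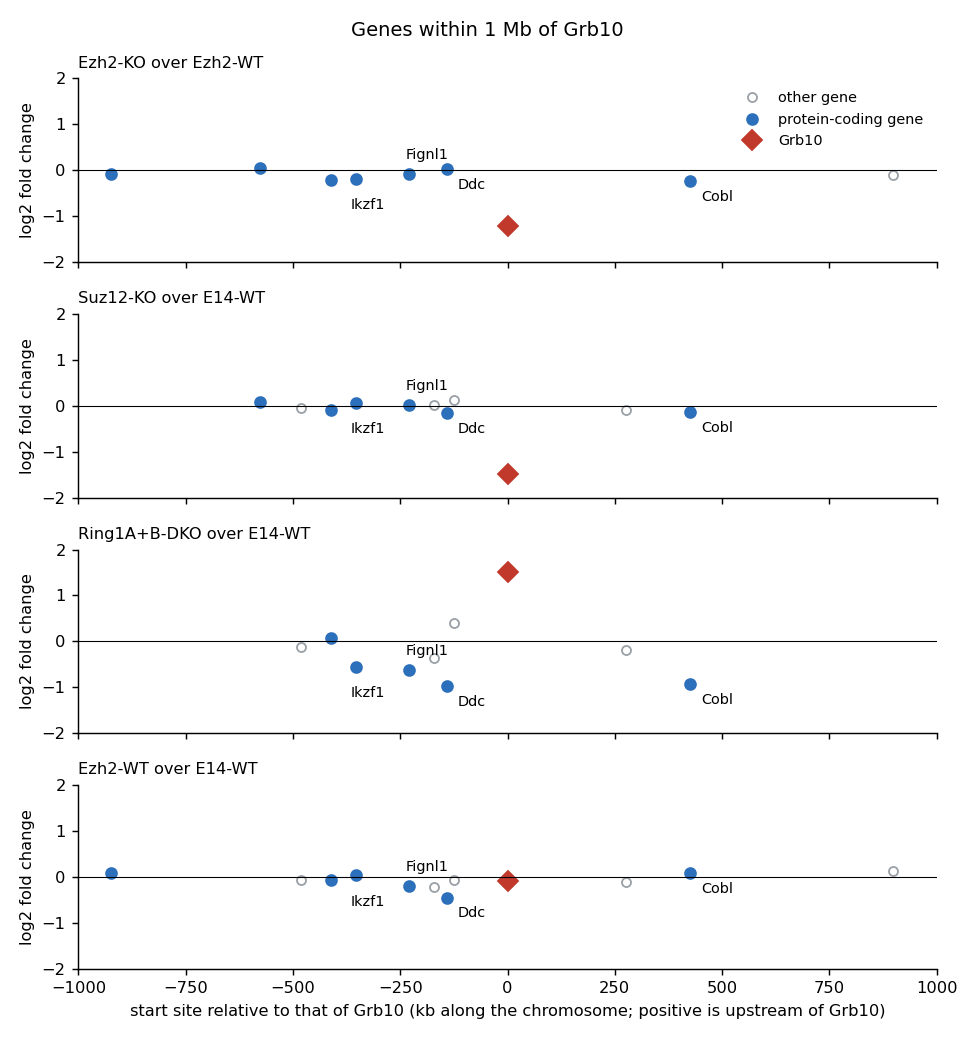
Log2 fold change (authors' deposited table) of genes within 1 Mb of Grb10 against the distance of their start site from that of Grb10 in kb, positive on the upstream side of Grb10, for the 4 comparisons. Filled blue circles are protein-coding genes, open circles other genes and the red diamond Grb10. Grb10 stands apart in each knockout comparison, and Ddc (-0.98) and Cobl (-0.94) are the lowest neighbours in Ring1A+B-DKO.

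Among imprinted genes Grb10 was the lowest in both PRC2 knockouts. The list used here holds 45 of them, 18 known to be used mainly from the maternal and 27 mainly from the paternal copy. The deposited values do not tell the copies apart, so their use in these cells is unknown. Of the others, 0 of 33 with a value were called in Ezh2-KO and 1 of 34 in Suz12-KO, beside 0.177% and 0.200% of all genes, at which so few calls are no result about the list. That 1 is Sfmbt2, a Polycomb-group gene used from the paternal copy, which was called higher at 1.44 and stood at 0.94 in Ezh2-KO, on the other side of 0 from Grb10. The next lowest were Ascl2, a trophoblast transcription factor gene, at -1.03 in Ezh2-KO, and Zrsr1, a splicing factor gene, at -0.85 in Suz12-KO, both uncalled. Without Grb10 the imprinted genes had medians of 0.00 in Ezh2-KO and -0.06 in Suz12-KO, beside -0.01 and -0.03 over all genes. Gnas, which encodes a G protein subunit, stood at -0.96 and -0.76 in the PRC2 knockouts and at 0.48 in Ring1A+B-DKO, without a call. Ascl2 stood at -1.03, -0.51 and 1.40 in the same order, also uncalled, and at 1.14 between the wild types.

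In Ring1A+B-DKO imprinted genes were called both ways, and Grb10 was the smallest of the called increases. Of 37 others with a value, 6 were called higher and 3 lower, beside 2.38% and 0.620% of all genes. The growth restraining CDK inhibitor gene Cdkn1c, at 3.21, and the noncoding H19, at 2.79, are listed with Grb10 as mainly maternally used. Cdkn1c and H19 stood at -0.34 and 0.62 in Ezh2-KO and at -0.21 and -0.06 in Suz12-KO. The paternally used Igf2, Peg10, Dlk1 and Sfmbt2 were called higher at 2.35, 2.44, 2.33 and 2.52. Among the 15 other maternally used genes with a value, 2 were called higher and 2 lower, Mirg at -1.64 and Rian at -1.17. The 22 paternally used genes had 4 calls higher and 1 lower, Peg3 at -1.33. Genes of either list were thus called in each direction, and the use of the parental copies was not measured here. The medians without Grb10 were 0.48 for the maternally used and 0.23 for the paternally used genes, beside 0.07 over all genes. The 34 others with a value between the wild types had 0 calls.

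**Figure D5:**
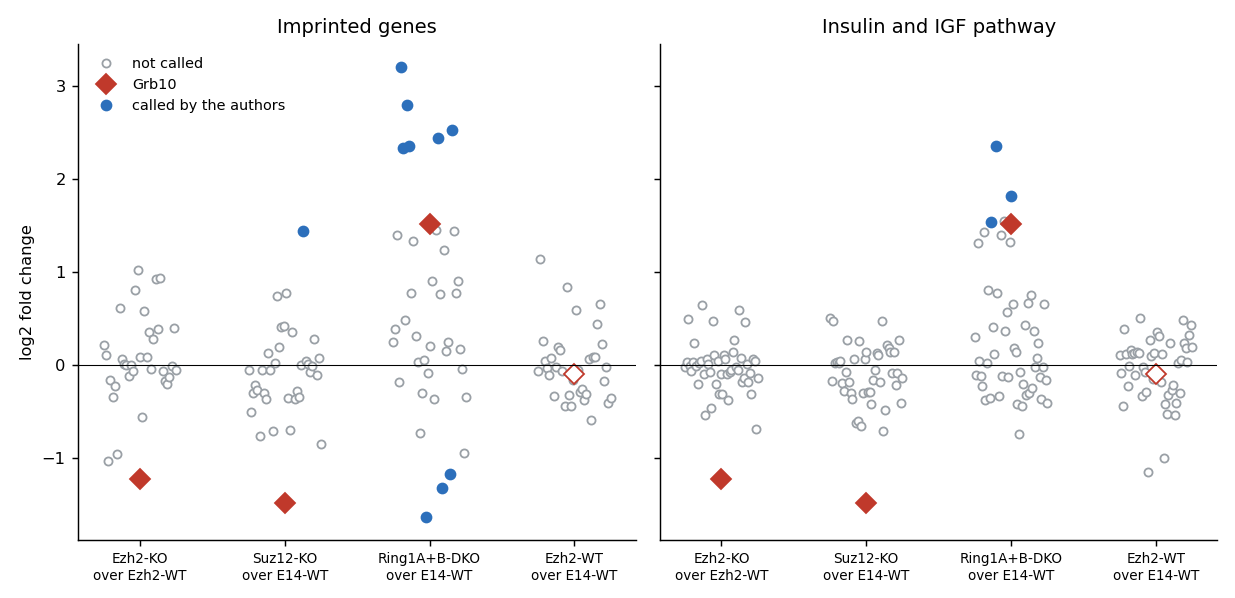
Log2 fold change (authors' deposited table) of 44 imprinted genes (left) and 52 insulin and IGF pathway genes (right) other than Grb10, where they have a value, in the 4 comparisons. Filled circles were called by the authors, open ones were not, and the diamond is Grb10, filled where called; sideways positions carry no meaning. Grb10 is the lowest point of both lists in Ezh2-KO and Suz12-KO and lies among the higher points in Ring1A+B-DKO.

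The pathway in which the Grb10 protein acts was described next, from ligand to kinase. Across its 5 lists, 52 genes other than Grb10, of which 48 had a value in Ezh2-KO and 43 in Suz12-KO, had 0 calls in either, beside 0.177% and 0.200% of all genes. At such low shares 0 calls is no result about these genes. Their values ran from -0.69 to 0.65 in Ezh2-KO and from -0.71 to 0.51 in Suz12-KO, so Grb10 was below every member in both. In Ring1A+B-DKO 3 of 49 were called higher and 0 lower, beside 2.38% and 0.620% of all genes, and the median was 0.08, against 0.07 over all genes. Between the wild types 0 of 47 were called.

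Among the ligands and their binding proteins, Igf2, the main IGF of the embryo, was called higher in Ring1A+B-DKO at 2.35 and stood at 0.06 in Ezh2-KO and -0.30 in Suz12-KO. Ins1, Ins2 and Igfbp1 had no value in any comparison. Igfbp3 and Igfbp5, which bind IGFs outside the cell, stood at 1.40 and 1.55 in Ring1A+B-DKO without a call. The receptors that the Grb10 protein binds, Igf1r and Insr, stood at 0.12 and -0.13 in Ring1A+B-DKO, at -0.53 and -0.32 in Ezh2-KO and at -0.18 and -0.66 in Suz12-KO, called in none. Igf2r, an imprinted receptor that clears Igf2, stood at 0.78 in Ring1A+B-DKO, 0.01 in Ezh2-KO and -0.36 in Suz12-KO.

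Of the receptor substrates and adaptors, Irs1, which passes the signal of both receptors on, was called higher in Ring1A+B-DKO at 1.82 and stood at -0.31 in Ezh2-KO and -0.30 in Suz12-KO. Irs2 stood at 0.65 in Ring1A+B-DKO, 0.11 in Ezh2-KO and 0.06 in Suz12-KO, uncalled. The closest relatives of Grb10 are the adaptor genes Grb7 and Grb14. Grb7 was called higher in Ring1A+B-DKO at 1.54, beside 1.52 for Grb10, but stood above 0 in the PRC2 knockouts, at 0.65 in Ezh2-KO and 0.26 in Suz12-KO, without a call. Grb14 stood at 0.81 in Ring1A+B-DKO and 0.02 in Ezh2-KO and had no value in Suz12-KO. The Grb10-binding proteins have genes that were not called in any comparison. Gigyf1 and Gigyf2 stood at -0.38 and 0.02 in Ring1A+B-DKO and between -0.28 and -0.01 in the PRC2 knockouts. Nedd4, the ubiquitin ligase that acts on the IGF1 receptor with Grb10, stood at -0.74 in Ring1A+B-DKO, -0.37 in Ezh2-KO and -0.30 in Suz12-KO. The 22 genes of PI3K, AKT and mTOR, the kinase that phosphorylates the Grb10 protein, had 0 calls in all 4 comparisons, which at the low shares of all genes called (at most 3.00%, in Ring1A+B-DKO) is no result about them. Mtor stood at -0.42 in Ring1A+B-DKO.

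Some markers of other cell types were called in the comparison in which Grb10 was high. In Ring1A+B-DKO, 4 of 9 primitive endoderm markers, 3 of 9 trophoblast markers and 2 of 6 feeder fibroblast markers with a value were called higher and 0 lower, beside 2.38% and 0.620% of all genes. Their medians were 1.29, 1.29 and 0.68. The endoderm calls were the transcription factor genes Gata6 and Gata4, at 2.69 and 2.39, the adaptor gene Dab2 at 1.87 and the collagen gene Col4a1 at 2.00. The trophoblast calls were the keratin genes Krt7, Krt8 and Krt18, at 1.64, 2.62 and 3.10, and the fibroblast calls were Thy1 at 1.66 and Col5a1 at 1.33. Uncalled were the endoderm markers Sox17 (0.53), Sox7 (0.96), Pdgfra (1.29), Foxa2 (0.70) and Lamb1 (0.86). The trophoblast markers Cdx2 (0.57), Eomes (1.04), Elf5 (0.24), Tfap2c (0.14), Hand1 (1.29) and Ascl2 (1.40) were also uncalled. So were the fibroblast markers Col1a1 (0.94), Col1a2 (0.42), Col3a1 (0.25) and Fn1 (-0.56). Of 8 neural markers 0 were called higher and 2 lower, Tubb3 at -2.10 and Olig2 at -2.37. In the PRC2 knockouts the marker lists of these 4 cell types had 0 calls in Ezh2-KO and 1 in Suz12-KO, the laminin gene Lamb1, lower at -1.80, beside 0.177% and 0.200% of all genes called. In lists this small 0 calls is near those shares, and the 1 call is above them but is only 1 gene. Their medians in Ezh2-KO were -0.09 for endoderm, 0.01 for trophoblast, 0.58 for neural and -0.15 for fibroblast markers. In Suz12-KO these were -0.16, -0.06, 0.37 and -0.44. The table gives no levels, so the share of such cells is unknown. All 10 pluripotency markers had a value in every comparison. Of these Klf4 was called higher in Ring1A+B-DKO at 1.04 and Nanog lower in Ezh2-WT at -1.15, and 0 were called in either PRC2 knockout.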

How the data were processed

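RNA-seq was done on 15 samples of 5 lines with 3 replicates each, called biological in the series' design text. Per the submitters' processing notes, TopHat, featureCounts and DESeq2 were used on GRCm38 (mm10), and per the file headers gene identifiers are those of Ensembl release 72. Versions, strand use and the criteria of the call were not found in the labels or the file. The authors deposited log2 fold changes from DESeq2, per the file headers, and a true or false call for 4 comparisons, each called gene being past 1 in size. No values per sample were used here, so no test, error, interval or depth can be given.

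The sign of each column was read from missing values, taken to mean no read in either group. Genes with reads in the named group and none in its control were above 0 as deposited in 922 of 922 cases for Ezh2-KO. They were below 0 in 1064 of 1064, 2259 of 2259 and 1170 of 1170 cases for Suz12-KO, Ring1A+B-DKO and Ezh2-WT. Those 3 columns were turned to named group over control. This rests on that reading of missing values, and all 13 patterns it allows were seen and no others. The sign rule and the search for nearest genes were also run on simulated data. Those data held the same meaning of missing values and planted near copies of a gene. The run therefore checks the code and not that reading.

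Of the 38355 identifiers, 36602 were found in GENCODE mouse release 21 (GRCm38), the source of symbols and coordinates. Near-identical copies of Grb10 were sought with blastn 2.17.0, asking for 95% identity, an alignment of 100 nt or more and a cover of 50% of the shorter of both transcripts. The promoter windows of 300 bases are those of RefSeq, and CG was counted in them. Percentiles are the share of genes with a lower value.

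Grb10 and the gene lists were chosen with earlier results of these data known. The genes named are Grb10, the deleted genes, called members of the lists, direct partners and neighbours of Grb10, the 8 nearest by distance, genes called as Grb10 in at least 2 of 3 knockout comparisons and the called genes next to it in rank. Other genes named are members of the lists, of the region or of the counts, picked once their values had been seen. Computations used Python 3.11.15, numpy 2.4.6, pandas 2.3.3 and matplotlib 3.10.9.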

Additional observations from a re-analysis of the deposited data

How the results depend on the processing

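The direction of Grb10 depends on one choice. With the sign as the column headers word it, Grb10 would stand at -1.52 in Ring1A+B-DKO, 1.48 in Suz12-KO and 0.10 in Ezh2-WT, all 3 reversed, and would stay at -1.22 in Ezh2-KO. That sign would make increases of the decreases of deleted genes, Ring1 (-2.03, called) in Ring1A+B-DKO and Suz12 (-1.04, uncalled) in Suz12-KO. It would make a decrease of the value of Rnf2 (0.17, uncalled), also deleted in Ring1A+B-DKO. Subtracting the median of each column moved no value by more than 0.068, also for the lines placed relative to E14-WT, which was added after seeing the data. Percentiles over protein-coding genes or over genes with a value of their own moved by at most 2.62 points. Of the 8 nearest genes, 6 were shared when each column was divided by its SD and 4 when only the 3 knockout comparisons were used. With 500 kb in place of 1 Mb, 0 neighbours were called, as before. With a size of at least 1 in all 3 knockout comparisons in place of a call, 2 genes in place of 1 had the signs of Grb10. No paired analysis was possible because the table holds no values per sample, and leaving out replicates, another normalization and a filter on low counts were not run for the same reason.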

Other observations

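Genes that act on DNA methylation or at imprinted regions, a list of 12 with Tet1 and Tet2 among them, were read beside Grb10 in the authors' deposited table. In Ring1A+B-DKO Uhrf1, which recruits the maintenance DNA methyltransferase, was called lower at -1.01, and its partner Dnmt1 stood at -0.88 without a call. Dppa3, which protects imprints in the early embryo, was called higher there at 4.19 and in Suz12-KO at 1.54, and stood at 0.66 in Ezh2-KO. Zfp57 and Trim28, which hold methylation at imprinted regions, stood at -0.60 and -0.51 in Ring1A+B-DKO, -0.06 and 0.17 in Ezh2-KO and 0.00 and 0.52 in Suz12-KO, with no call. In Ezh2-KO 0 of the 12 were called. Over all genes 3.00% were called in Ring1A+B-DKO, 0.177% in Ezh2-KO, 0.200% in Suz12-KO and 0.607% in Ezh2-WT, and in Ezh2-KO 0 calls is no result about the list. Between the wild types Dnmt3l, a cofactor of de novo methylation, was called lower in Ezh2-WT at -1.56. Dnmt3a, a de novo methyltransferase gene, stood at -0.50 in Ring1A+B-DKO, -0.70 in Ezh2-KO, -1.01 in Suz12-KO and -1.27 in Ezh2-WT, uncalled in each. DNA methylation was not measured in these libraries, and its part in the values of Grb10 was not tested.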
